A study of Rattus norvegicus with 4 samples.

Results

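Prostaglandins are lipid signals made from arachidonic acid, and the genes described here are 10 rat genes that make them or receive them: the prostaglandin D synthases Ptgds and Hpgds, the cyclooxygenases Ptgs1 and Ptgs2, the prostaglandin E synthases Ptges, Ptges2 and Ptges3, and the prostaglandin E2 receptors Ptger1, Ptger2 and Ptger4. They form a fixed list of names, drawn up with earlier results of these data known, and no measured value enters the rule itself. Every array probe whose RefSeq accession maps to one of them was taken. All 10 genes had a probe, with 14 of the 45565 probes that had a value on all arrays. Of these, 6 probes of 5 genes (Ptgds, Ptgs1, Ptges2, Ptges3 and Ptger1) were well above background on at least 2 arrays and were tested, out of 28016 tested probes and 11656 tested genes in all.

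The samples were cultures of oligodendrocyte precursor cells (OPCs), the cells that mature into the myelin-forming cells of the brain, isolated from the pooled cortices of Sprague–Dawley rats at postnatal day 2. All cultures were expanded for 3 days with the growth factors bFGF and PDGF and moved to a differentiating medium with the thyroid hormone T3. They were then transfected by Lipofectamine RNAiMAX with 50 nM of a siRNA pool against the receptor GPR17 (siGPR17) or of a non-targeting pool (siNEG). RNA was taken 48 h later, at day in differentiation 2, and hybridized to single-color Agilent arrays, with 2 samples per condition, labeled as replicates. A pool of siRNAs lowers a transcript without deleting it, and no array of untransfected cells was analysed here.

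A signal in the text is the intensity of a probe, the brightness of its spots, set to the same 75th percentile on all 4 arrays. That percentile lay between 564.9 and 624.1 intensity units before scaling, and 26997 to 28244 probes per array were well above background. The targeted gene Gpr17 gave signals of 1107 and 1113 on the siNEG arrays and of 652 and 639 on the siGPR17 arrays. The groups did not overlap, and the log2 fold change was −0.78 ± 0.08 (SE), with an adjusted p of 0.209 in limma. All 13 oligodendrocyte lineage markers were tested, and their summed signal was 549740 to 621412 on the siNEG arrays and 599582 to 613188 on the siGPR17 arrays. The arrays lay on 1 slide, with both siNEG arrays in column 4 and both siGPR17 arrays in column 3, so that slide column and treatment cannot be told apart. In these bulk samples fewer cells of a type and less RNA per cell cannot be told apart either.

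In the cell, phospholipases free arachidonic acid from membranes, and the cyclooxygenases turn it into the unstable intermediate prostaglandin H2. Terminal synthases then make prostaglandin D2, E2 and the other prostanoids from it, which leave the cell and act on G protein-coupled receptors. In the brain, Ptgds is expressed by oligodendrocytes and by cells of the meninges and choroid plexus, whereas Hpgds and Ptgs1 are best known from microglia and macrophages, and Ptgs2 is an inducible gene of neurons and inflamed tissue.

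No prostaglandin gene was past the study's thresholds (fold change at least 1.5, adjusted p under 0.07) in limma (0 of 5), and 0% of the 11656 genes were. The gene with the smallest spread relative to its difference was Ptgds, with 1.99 times the siNEG signal in GPR17-silenced OPCs. Ptgs1 and Ptger1 also lay higher and Ptges3 lower, while the interval of Ptges2 lay inside the 1.5-fold threshold on both sides. Hpgds was above background on 1 siNEG array alone, and the other members, Ptgs2, Ptges, Ptger2 and Ptger4, had no array well above background. At an unadjusted limma p under 0.05, 3 of the 5 tested members differed, 2 higher and 1 lower, against 16.2% of all tested genes. The 2 siNEG and the 2 siGPR17 arrays did not overlap for 4 of the 5, 3 higher and 1 lower, against 53.4% of all tested genes. Among the 3 higher, Ptger1 met the filter on dim probes only through its siGPR17 arrays. With 3 ways to split 4 arrays into pairs, an exact two-sided permutation test cannot give a p below 0.333, so that single values have no such test here.

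**Figure D1:**
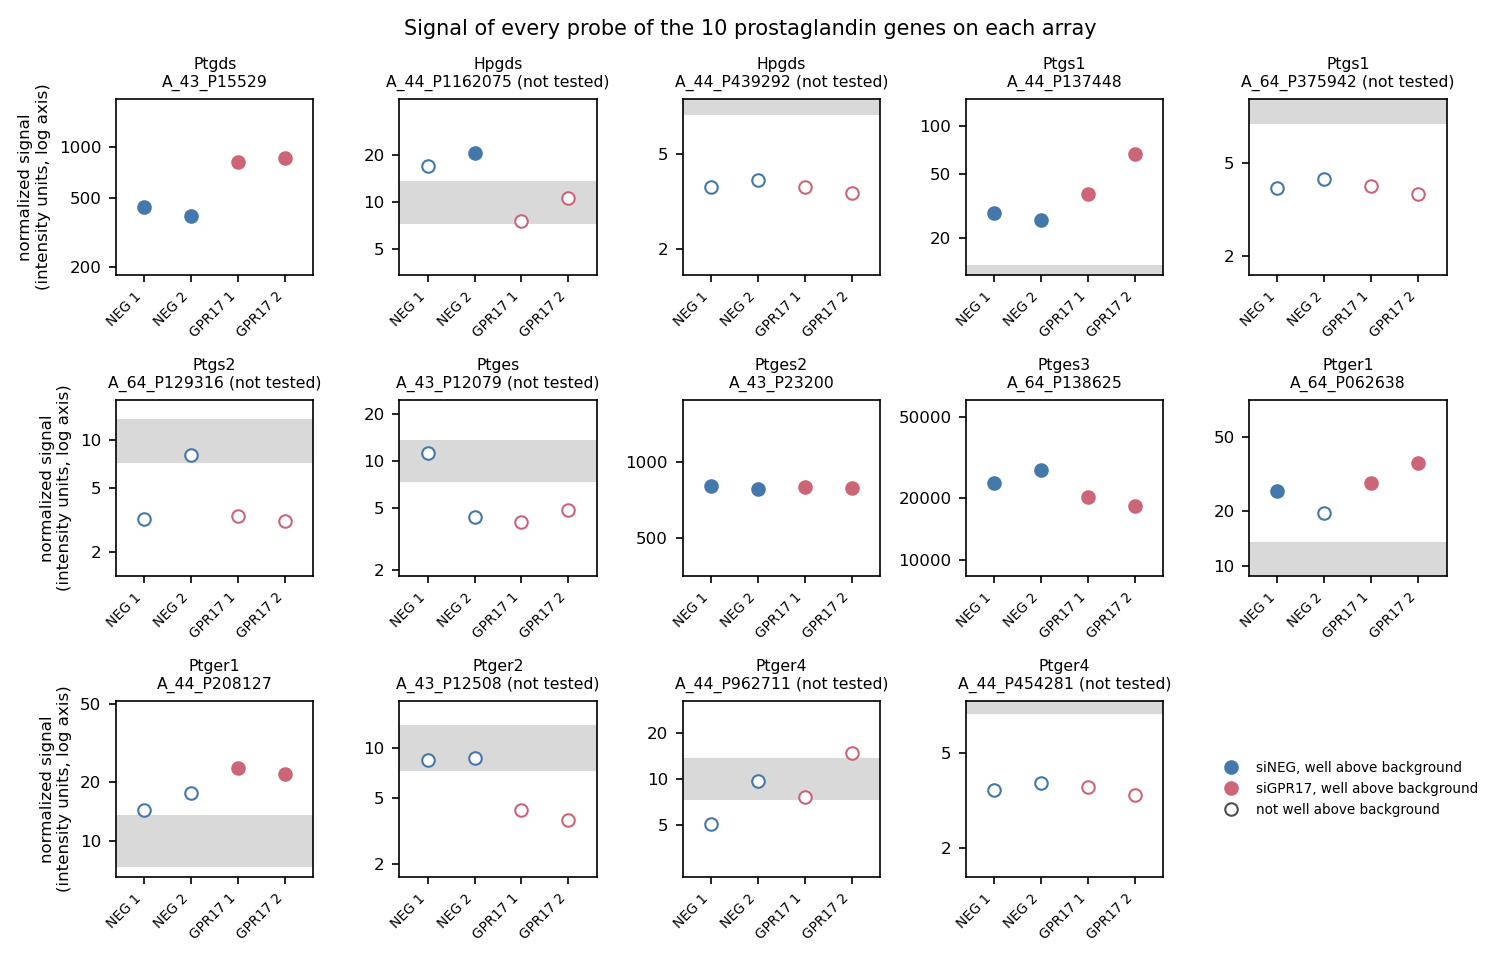
Normalized signal (log axis, intensity units) of all 14 probes of the 10 genes on the 2 siNEG and the 2 siGPR17 arrays. Filled points are well above background, open points are not, and the grey band spans the lowest signal called well above background on each array, 7.38 to 13.4. Ptgds lies between 396 and 447 on the siNEG arrays and between 815 and 859 on the siGPR17 arrays, and 8 of the 14 probes were too dim to be tested.

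The starts of Ptgds, Ptgs1 and Ptges lie on chromosome 3 of the rat RefSeq assembly GRCr8, that of Ptger4 on chromosome 2, Ptges3 on 7, Ptgs2 on 13, Ptger2 on 15 and Ptger1 on 19. Promoter sequences, from 250 bases before to 50 bases after the start, were found for 8 of the 10 members. Those of Ptgds and Ptges3 are shown, because these members had opposite differences and each was read from 10 spots per array. Capitals mark matches, on both strands, to the E-box CANNTG bound by helix-loop-helix factors, to the GC box GGGCGG and to the nuclear receptor half-site AGGTCA.
Ptgds promoter, chr3:28682929-28683228, minus strand: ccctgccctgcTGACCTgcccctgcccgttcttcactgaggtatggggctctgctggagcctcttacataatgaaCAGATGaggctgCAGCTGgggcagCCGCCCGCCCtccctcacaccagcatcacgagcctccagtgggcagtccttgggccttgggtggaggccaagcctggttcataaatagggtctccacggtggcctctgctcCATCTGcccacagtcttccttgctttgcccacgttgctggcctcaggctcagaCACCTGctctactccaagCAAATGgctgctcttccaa
Ptges3 promoter, chr7:1075059-1075358, plus strand: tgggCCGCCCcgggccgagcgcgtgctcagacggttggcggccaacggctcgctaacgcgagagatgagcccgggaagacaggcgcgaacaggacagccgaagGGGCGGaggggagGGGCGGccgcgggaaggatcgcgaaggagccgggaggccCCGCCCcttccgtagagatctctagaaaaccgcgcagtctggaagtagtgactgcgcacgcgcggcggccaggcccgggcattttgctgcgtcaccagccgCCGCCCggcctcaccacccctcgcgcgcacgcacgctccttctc
The Ptgds window held 5 E-boxes, at −175, −163, −40, 14 and 32 from the start, a pair of overlapping GC boxes on the opposite strand and 1 half-site on the opposite strand at −239. At least 1 E-box was in 72.1% of the 33469 rat promoters of the same length, and 5 or more were in 1.77% of them. The Ptges3 window held no E-box and 5 GC boxes, and 71.7% of its bases were G or C, against 60.7% in the Ptgds window. At least 1 GC box was in 33.1% of all promoters, 5 or more were in 2.34%, and the half-site was in 16.2%. These matches describe letters in the windows and were not tied to the array values.

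Ptgds encodes lipocalin-type prostaglandin D synthase, a secreted enzyme that makes prostaglandin D2 and also carries small lipophilic molecules. Its probe, A_43_P15529 (NM_013015), gave signals of 447 and 396 on the siNEG arrays. The siGPR17 arrays gave 815 and 859, so that both lay well above both siNEG arrays. The log2 fold change was 0.99 ± 0.11 (SE), with a 95% interval from 0.70 to 1.29 that corresponds to 1.62 to 2.44 times the siNEG signal, and the adjusted p in limma was 0.209. The probe was printed in 10 spots on each array. These ranged from 415 to 464 and from 377 to 424 on the siNEG arrays, and from 756 to 860.3 and from 808 to 898 on the siGPR17 arrays. Each of the 10 spot positions on its own gave a log2 fold change between 0.95 and 1.05, and the SD between spots of an array was at most 0.06 on the log2 scale. The spots are repeats of 1 hybridization and not replicates of the treatment.

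Among all tested genes, 61 (0.523%) had a fold change at least as high as that of Ptgds. Ptgds passed both thresholds when the spread was modeled with the trend and robust options of limma (adjusted p 0.0144), where 1 of the 5 members and 1.58% of all genes were called. It passed them too when the background was corrected by normexp (log2 fold change 0.88, adjusted p 0.0153), where 1 of the 5 members and 0.961% of all genes were called. Over 14 alternatives its log2 fold change stayed between 0.88 and 1.15 and its adjusted p between 0.0144 and 0.665, the highest without siGPR17 replicate 1. Of 8 markers of meningeal and other fibroblasts, which are another source of Ptgds, 3 were tested, 2 higher and 1 lower. These 3 summed to 307 to 417 on the siNEG arrays and 409 to 413 on the siGPR17 arrays, ranges that overlapped, and most of the sum was Col1a2. The brighter probe of Col1a1 gave 34.6 and 20.8 on the siNEG arrays and 46.7 and 27.8 on the siGPR17 arrays, a log2 fold change of 0.43 (adjusted p 0.593 in limma), and its other tested probe gave 1.15 (adjusted p 0.467). The lower marker, Slc6a13, gave 31.1 and 18.4 on the siNEG arrays and 19.0 and 16.9 on the siGPR17 arrays. Its log2 fold change was −0.42 (adjusted p 0.497 in limma). Col3a1, not tested, gave 17.4 and 9.44 on the siNEG arrays and 38.4 and 16.2 on the siGPR17 arrays, and it was above background on 1 siGPR17 array alone, as was each of the 2 untested probes of Foxc1. For every one of these fibroblast probes the groups overlapped, and Dcn, Lum and Pdgfrb were not above background on any array. The part of this list in the Ptgds difference was not tested.

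Hpgds encodes the hematopoietic prostaglandin D synthase, which makes the same product from a gene of the glutathione transferase family. Its brighter probe, A_44_P1162075, gave 17.1 and 20.8 on the siNEG arrays and 7.58 and 10.6 on the siGPR17 arrays. Only siNEG replicate 2 was well above background, so the probe was not tested. A bound took, on each siGPR17 array, the higher of the probe's own signal and the lowest signal called well above background there. By it Hpgds was 1.58-fold lower in GPR17-silenced OPCs. This bound rests on 1 measured array and is not a strict limit. On siGPR17 replicate 1 that lowest signal was 13.4, yet the leukotriene receptor gene Ltb4r2 at 18.5 was not well above background there. The other probe, A_44_P439292, lay between 3.43 and 3.89, with no array well above background.

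The cyclooxygenases were dim. Ptgs1 encodes the constitutive enzyme COX-1, and its probe A_44_P137448 (NM_017043) gave 28.7 and 25.9 on the siNEG arrays and 37.7 and 67.3 on the siGPR17 arrays. Both siGPR17 values were above both siNEG values, but they lay further from each other than the lower of them lay from the siNEG arrays. The log2 fold change was 0.89 ± 0.31 (SE, 95% interval 0.05 to 1.73), with an unadjusted limma p of 0.0427 and an adjusted p of 0.286. A total of 85 genes (0.729%) had a fold change at least as high.

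The probe of Ptgs1 was printed in 2 spots, and these did not give the same difference. The first spot read 23.0 and 20.6 on the siNEG arrays, the latter not well above background, and 33.1 and 123 on the siGPR17 arrays. The second read 35.8 and 32.6 on the siNEG arrays and 42.9 and 36.9 on the siGPR17 arrays. On siGPR17 replicate 2 the spots therefore differed by a factor of 3.33, whereas on the other 3 arrays they differed by a factor of 1.30 to 1.59. The log2 fold change was 1.55 from the first spot and 0.22 from the second, which alone was above background on every array (adjusted p 0.426 in limma, an alternative added after the data had been seen). Without siGPR17 replicate 2 it was 0.47, and without siGPR17 replicate 1 it was 1.30. A second probe of Ptgs1, A_64_P375942, gave 3.67 to 4.26, with no array well above background. Ptgs2, which encodes the inducible enzyme COX-2, gave 3.22, 8.16, 3.36 and 3.12 on the 4 arrays with siNEG first, again not well above background.

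**Figure D2:**
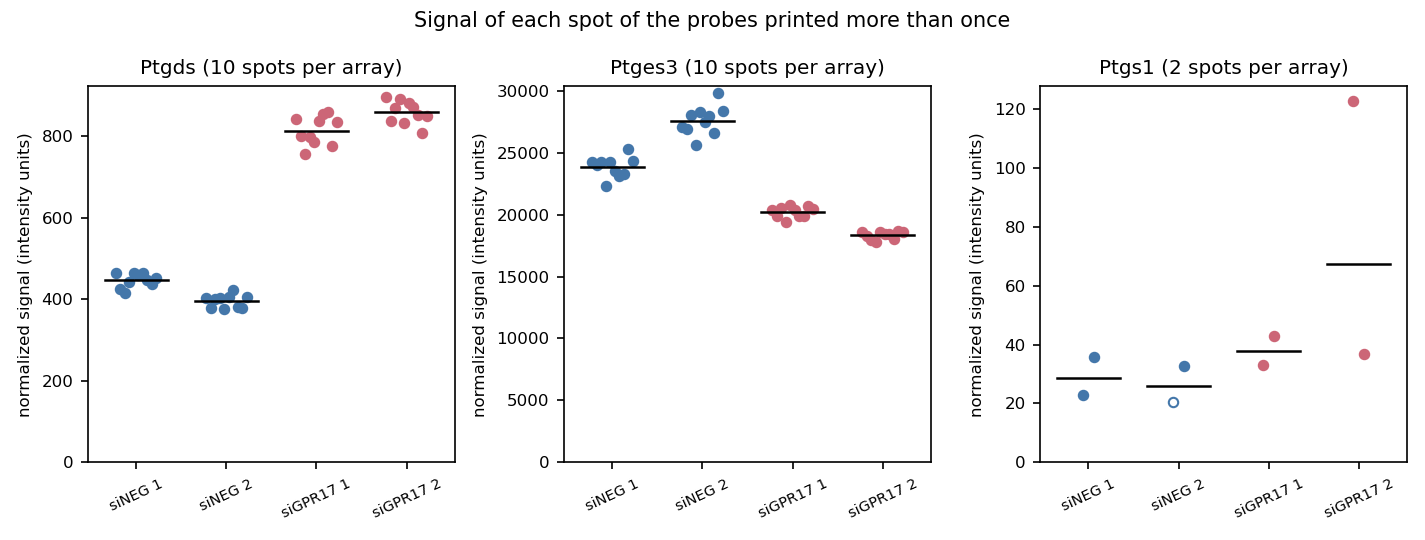
Normalized signal (intensity units, axis from 0) of each spot of the Ptgds, Ptges3 and Ptgs1 probes on the 4 arrays. Black lines are the mean over spots on the log2 scale, and the open point is not well above background. The 10 spots of Ptgds and of Ptges3 stay together on each array, whereas on siGPR17 replicate 2 the 2 spots of Ptgs1 read 123 and 36.9.

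The prostaglandin E synthases ran from very bright to not above background. Ptges3 encodes the cytosolic prostaglandin E synthase, better known as p23, a co-chaperone of HSP90. Its probe A_64_P138625 (NM_001130989) gave 23849 and 27600.2 on the siNEG arrays and 20214 and 18342 on the siGPR17 arrays, so that both siGPR17 arrays were lower. The log2 fold change was −0.41 ± 0.12 (SE, 95% interval −0.75 to −0.08), 0.751 times the siNEG signal, with an unadjusted limma p of 0.0255 and an adjusted p of 0.255. Each of its 10 spots gave a value between −0.48 and −0.36, and 741 genes (6.36%) were lower by at least as much. Over the alternatives the log2 fold change ranged from −0.52 without siNEG replicate 1 to −0.26 with spike-in scaling.

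Genes related to Ptges3 by name did not all lie on the same side. Ptges3l1 gave a log2 fold change of 0.07 (adjusted p 0.936 in limma) while the brighter probe of Ptges3l gave −0.39 (adjusted p 0.248) and its other tested probe 0.52 (adjusted p 0.715). How far the Ptges3 probe could bind transcripts of these genes was not examined. Ptges2 encodes the membrane-associated synthase type 2, and its probe A_43_P23200 (NM_001107832) gave 801 and 779.6 on the siNEG arrays and 794 and 787 on the siGPR17 arrays. The siGPR17 values lay between the siNEG values, and the log2 fold change was 0.00 ± 0.09 (SE, adjusted p 0.997 in limma), with an interval of 0.851 to 1.18 times the siNEG signal. Ptges, the microsomal enzyme that is induced with COX-2, gave 11.2 and 4.36 on the siNEG arrays and 4.04 and 4.88 on the siGPR17 arrays, none of them well above background.

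Of the receptors, Ptger1 alone was measured. It encodes EP1, the prostaglandin E2 receptor that raises intracellular calcium. Its brighter probe A_64_P062638 (NM_001278475) gave 25.5 and 19.6 on the siNEG arrays, the latter not well above background, and 28.3 and 36.3 on the siGPR17 arrays. The groups did not overlap, but the lowest siGPR17 value was close to the highest siNEG value. With 1 siNEG array well above background, this probe met the filter of 2 arrays only through the siGPR17 arrays, where it read higher. Its lack of overlap and its rank therefore support nothing by themselves. The log2 fold change was 0.52 ± 0.20 (SE, 95% interval −0.03 to 1.07), with an adjusted p of 0.313 in limma, and 379 genes (3.25%) were at least as high. Its other probe, A_44_P208127, gave 14.3 and 17.4 on the siNEG arrays, neither of them well above background, and 23.6 and 21.9 on the siGPR17 arrays. The estimate from these signals was 1.44 times the siNEG signal, with a 95% interval from 1.12 to 1.86 and an adjusted p of 0.234 in limma. That probe was tested only because both siGPR17 arrays measured it, and a probe let in this way could hardly have been lower there.

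Ptger2 and Ptger4 encode EP2 and EP4, the prostaglandin E2 receptors that raise cyclic AMP, and neither was measured above background. Ptger2 gave 8.36 and 8.68 on the siNEG arrays and 4.18 and 3.67 on the siGPR17 arrays. The probe of Ptger4 that read higher, A_44_P962711, gave 5.07 and 9.68 on the siNEG arrays and 7.65 and 14.7 on the siGPR17 arrays, and the other, A_44_P454281, stayed between 3.35 and 3.76. No fold change is given for these probes.

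Markers of other cells that express several of these genes were set beside them. Of 13 microglia and macrophage markers 10 were tested, of which 9 lay lower and 1 higher, 2 of the lower ones with an unadjusted limma p under 0.05. These 2 were Aif1 (log2 fold change −0.56, unadjusted limma p 0.00925) and P2ry12 (−0.32, unadjusted limma p 0.0327). The tested markers summed to 2718 to 4031 on the siNEG arrays and 2731 to 3183 on the siGPR17 arrays. The largest part was Cx3cr1, with 2512 and 1241 on the siNEG arrays and 1338 and 1884 on the siGPR17 arrays. Csf1r, C1qc and Ptprc were not above background on any array. Endothelial markers summed to 103 to 104 on the siNEG arrays and to 125 to 148 on the siGPR17 arrays, with 2 of 6 tested, both higher, and Pecam1, Cldn5 and Emcn not above background on any array. Tek gave a log2 fold change of 0.51 (unadjusted limma p 0.0167, adjusted p 0.235) and Cdh5 0.33 (adjusted p 0.353), both without overlap of the groups. Astrocyte markers summed to 9225 to 9718 on the siNEG arrays and to 7842 to 7870.3 on the siGPR17 arrays, with 4 of 8 higher and 4 lower. At an unadjusted limma p under 0.05, 3 astrocyte markers were lower and 0 higher, with log2 fold changes of −1.35 for Aqp4, −0.61 for Gfap and −0.37 for Slc1a3. By the brightest probe of each gene, the 4 higher ones gave 0.33 (Gja1), 0.27 (Aldh1l1), 0.23 (Fgfr3) and 0.19 (Sox9). Most of the astrocyte sum was Slc1a3. Of 8 neuronal markers 7 were tested, all lower, 5 of them at that level, with sums of 1300.2 to 1305 and 1109 to 1119. The part of these lists in the differences of Ptgs1, Ptger1 and Hpgds was not tested.

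The steps before and after these genes were looked at through 42 other genes with a probe, from a list of prostanoid and leukotriene metabolism, of which 23 were tested and 17 had no array well above background. Of the 23, 12 lay higher and 11 lower, 1 had an unadjusted limma p under 0.05 and 0 passed the thresholds. Their median log2 fold change was 0.03, and that of all tested genes was 0.01. The median of the 5 tested prostaglandin genes was 0.52, a description that moves with which of the dim genes could be tested and that supports nothing by itself.

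Among the genes listed for substrate release, which include an inhibitor of it, 4 of the 6 tested were higher and 2 lower. The largest difference was that of Anxa1, a glucocorticoid-induced inhibitor of phospholipase A2, with 48.6 and 46.2 on the siNEG arrays and 43.0 and 36.3 on the siGPR17 arrays (log2 fold change −0.26 ± 0.12, SE, adjusted p 0.368 in limma). The phospholipase gene Pla2g6 lay almost as far in the other direction (0.26 ± 0.10, SE, adjusted p 0.314 in limma), without overlap of the groups. Pla2g6 was named here after its value was seen. The cytosolic phospholipase gene Pla2g4a, which supplies cyclooxygenases in many cells, had no array well above background. Of the other prostanoid synthases 4 were tested, 2 higher and 2 lower, and by the brightest probe of each gene the largest difference was that of the carbonyl reductase gene Cbr1 (−0.16 ± 0.16, SE, adjusted p 0.650), whose other probe gave 0.09. The dimmer tested probe of Akr1b1, an aldose reductase gene, gave a larger log2 fold change of 0.30 ± 0.09 (SE, unadjusted limma p 0.0278, adjusted p 0.261), without overlap of the groups, while its brightest probe gave 0.06 ± 0.10. The prostacyclin synthase gene Ptgis was not above background on any array.

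The other prostanoid receptors had 5 tested genes, 4 higher and 1 lower. Tbxa2r, the thromboxane A2 receptor gene, gave 56.9 and 47.9 on the siNEG arrays and 68.3 and 72.9 on the siGPR17 arrays. Its groups did not overlap, and its log2 fold change of 0.44 ± 0.12 (SE, unadjusted limma p 0.0238, adjusted p 0.253) was the one on the pathway list with an unadjusted p under 0.05 when each gene is taken by its brightest tested probe. Of the receptors for prostaglandin D2, the product of Ptgds, Ptgdr (DP1) gave 101 and 76.6 on the siNEG arrays and 116 and 106.5 on the siGPR17 arrays. These did not overlap, with a log2 fold change of 0.34 ± 0.17 (SE, adjusted p 0.387), and Ptgdr was named here after its value was seen. Ptgdr2 (DP2) had no array well above background.

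Genes of prostaglandin breakdown and transport had 5 tested members, 2 higher and 3 lower, and by the brightest probe of each gene the largest difference was −0.12 ± 0.09 (SE, adjusted p 0.555 in limma) for the prostaglandin reductase gene Ptgr2. The dimmer probe of the transporter gene Abcc4 gave −0.16 ± 0.09 (SE, adjusted p 0.422). Hpgd, whose product inactivates prostaglandins, was not above background on any array. In the lipoxygenase arm, which turns the same substrate into leukotrienes, all 3 tested genes lay lower, the furthest being the 5-lipoxygenase gene Alox5 (−0.35 ± 0.40, SE, adjusted p 0.686). Alox5 was above background on 1 array of each group, and 6 genes of this arm were not above background on any.

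**Figure D3:**
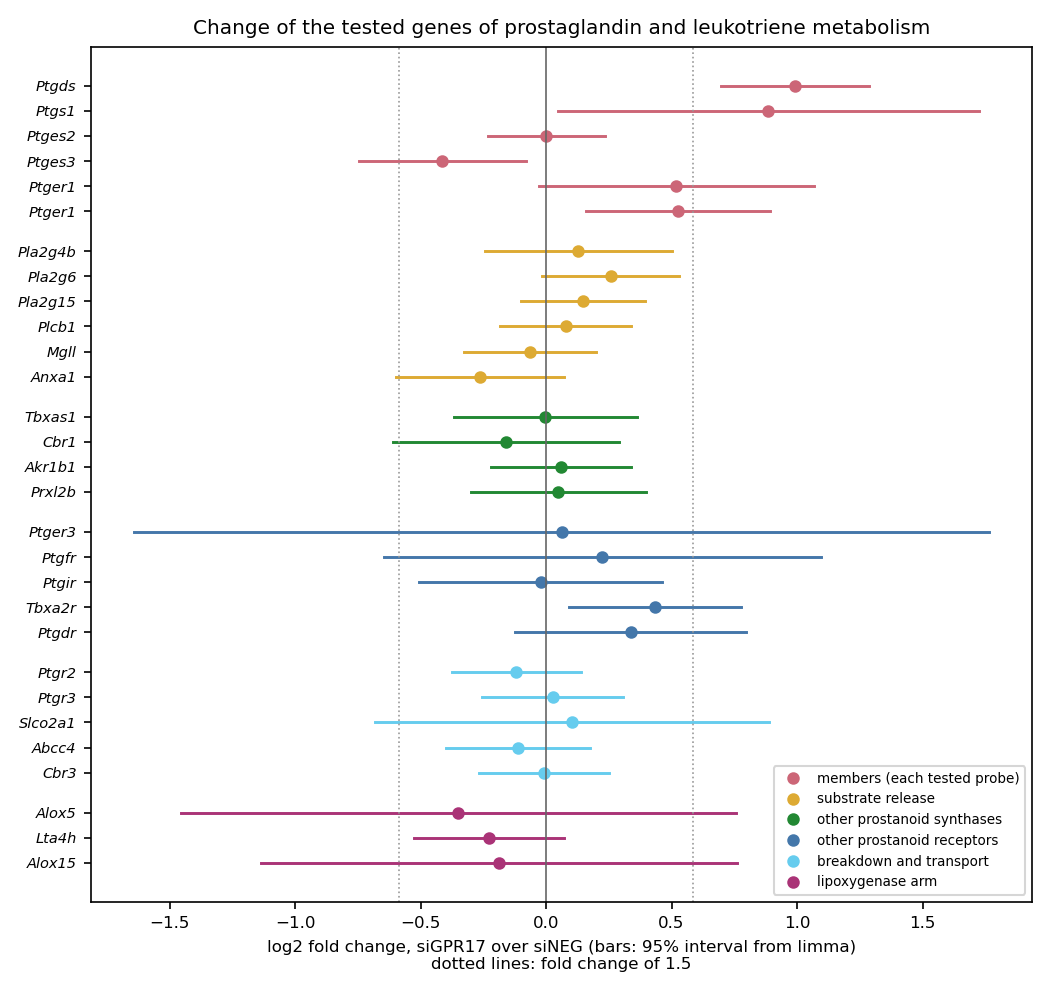
Log2 fold change of siGPR17 over siNEG with its 95% interval from limma (n = 2 arrays per group) for each tested probe of the prostaglandin genes and for the 23 tested genes of the surrounding pathway, by step. Dotted lines mark a fold change of 1.5. The interval of Ptgds, 0.70 to 1.29, lies beyond the dotted line, and that of Ptgs1 reaches from 0.05 to 1.73.

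**Figure D4:**
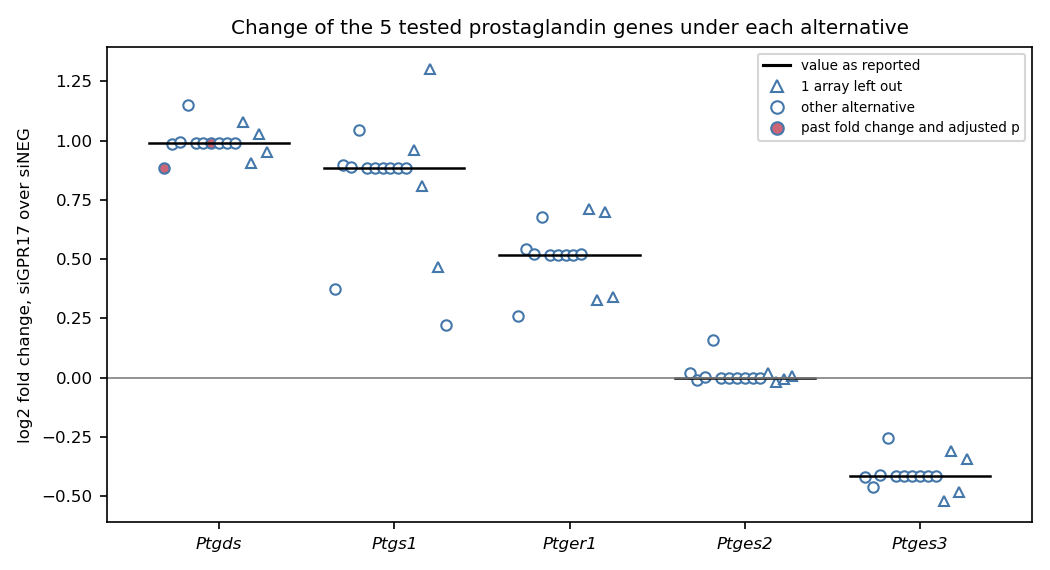
Log2 fold change of the 5 tested prostaglandin genes as reported (black lines) and under each alternative (points, with triangles where 1 array was left out). Filled points are past both thresholds (1.5-fold, adjusted p under 0.07), which happens for Ptgds in 2 of 14 alternatives. Ptges2 lies around 0, and no other of these genes changes sign under any of the alternatives run.

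Set side by side, the alternatives moved Ptgs1 the furthest, from 0.22 to 1.30, and Ptger1 from 0.26 with normexp to 0.71 without siNEG replicate 1. Ptgs1 and Ptger1 kept an adjusted limma p of at least 0.139 throughout and Ptges3 of at least 0.0855.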

How the data were processed

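Rat OPCs were profiled on 4 single-color Agilent arrays. The authors deposited, for each array, spot intensities from Feature Extraction 10.7.3.1, corrected for background by that software and not normalized between arrays, and the intensities of spot and background medians before correction. The methods set thresholds of 1.5-fold and of 0.07 for the adjusted p.

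Here control spots and spots with outlier flags were left out. The log2 processed intensity minus the 75th percentile of the array was averaged over the spots of a probe. Printed signals are these values on the linear scale, multiplied by 1 factor common to all arrays. A probe was well above background on an array where at least as many of its spots carried the software's flag as did not. Of 45565 probes, the 28016 well above background on at least 2 of 4 arrays were fitted with limma 3.58.1 (lmFit, eBayes; R 4.3.3) and adjusted by Benjamini-Hochberg over all of them. Probes were named by RefSeq accession through a GRCr8 gene table, and 21093 had a symbol. The brightest tested probe stood for a gene. For a group with no array above background, the bound took, per array, the higher of the lowest signal well above background and the probe's own signal. Because the design build differs, coordinates from the array design are not given, and the chromosomes and promoter coordinates are those of GRCr8. The number of arrays limits the precision.

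The members and lists were chosen with earlier results of these data known, although the rule for members uses names and no values. Named genes were Gpr17, all members, and, of the pathway list, genes with a fold change of at least 1.5 or an unadjusted p under 0.05 and the largest difference in each group. Alternatives were normexp with an offset of 50 on the spot medians, quantile, median and spike-in scaling, no filter and a filter on 4 arrays. Others were an unpaired t-test, eBayes with trend and robust options, and a replicate block. Further ones were the mean of a gene's probes, leaving out each array, and 1 spot for Ptgs1. The fit was tested on simulated data.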

Additional observations from a re-analysis of the deposited data

Results flagged for a closer look

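The probe of Ltb4r2 (A_64_P144098), a low-affinity leukotriene B4 receptor gene, was too dim to be tested and gave 4.69 and 5.98 on the siNEG arrays and 18.5 and 37.4 on the siGPR17 arrays. It is given here as a signal outside the tested probes that lay above the control arrays. It was well above background on siGPR17 replicate 2 and on no other array. The bound used for dim probes was 3.01-fold higher in GPR17-silenced OPCs, and it is not a strict lower limit. That bound rests on 1 measured array, since the 18.5 was not well above background, and other probes at higher signals than its floor were not above background either, such as Hpgds at 17.1 on siNEG replicate 1.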

How the results depend on the processing

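With 2 arrays per group, depth of evidence is limited by the number of arrays and, for Ptgs1, Ptger1 and Hpgds, by signals near background. With normexp the log2 fold change of Gpr17 was −0.66 (adjusted p 0.0220), and with the trend and robust options it was −0.78 (adjusted p 0.0152). Under these settings 1 prostaglandin gene (Ptgds) and 112 or 184 of all genes passed the thresholds, in place of 0, with 60 higher and 52 lower or 87 higher and 97 lower. By an unpaired t-test after Benjamini-Hochberg 0 genes passed. The methods name that test for comparisons of 2 groups in general, and their section on the arrays names no test. The median of the tested prostaglandin genes, 0.52, was 0.26 with normexp, 0.68 with spike-in scaling, −0.21 over 10 genes with no filter on dim probes, and 0.33 to 0.71 when 1 array was left out. Ptges2 changed sign with quantile scaling (−0.0076), and when 1 array was left out it ranged from −0.019 to 0.020. Spike-in scaling moved the median of all genes to 0.17, and the log2 fold changes of the members moved with it. The other pathway genes had 0 past the thresholds in every alternative run. With the replicate block the log2 fold change of Ptgds was 0.99 (adjusted p 0.390), and 0 genes passed, as without it. Arrays of the same number did not deviate together (r = −0.07 across probes, which are not independent). With 2 arrays per group this value cannot decide whether arrays of the same number shared a culture. Both arrays of replicate 1 lay in slide row 1 and both of replicate 2 in row 2. The causes of these differences were not tested.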
